A study of Bos taurus and Sus scrofa with 6 samples.

Results

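Iron handling in the prepubertal testis of cattle and pigs was described here through 5 genes: TF (transferrin), TFRC (the transferrin receptor), FTH1 and FTL (the heavy and light chains of ferritin) and SLC40A1 (ferroportin). The genes were taken by symbol from the gene tables, and all 5 were found among the 19994 genes listed for cattle and among the 22694 listed for pigs. TF was selected on its measured level in cattle Leydig-like cells, where it is a leading gene, so that excess is given as a description with no test. The other members were chosen by their place in the same pathway. The Ensembl identifiers in the tables were ENSBTAG00000007273 and ENSSSCG00000011640 for TF, ENSBTAG00000032719 and ENSSSCG00000011848 for TFRC, ENSBTAG00000011184 and ENSSSCG00000035541 for FTH1, ENSBTAG00000013343 and ENSSSCG00000003153 for FTL, and ENSBTAG00000010498 and ENSSSCG00000027157 for SLC40A1, in cattle and pigs respectively.

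Single-cell RNA-seq profiled dissociated testicular parenchyma from 3 Holstein cattle (4.5 months of age) and from 3 pigs of mixed breed that were 3 months old, all castrated before puberty and none given a treatment. Each library held all live cells of a digest, with no sort, and about 8000 cells were loaded. Per the study's methods the tissue came from 3 separate males of each species. With 3 libraries per species each library is taken as 1 animal. The p-values of the main edgeR fit thus measure the spread between animals with 1 library each. Those of the alternative fit with the animal as a block are not read in that way. Species, breed, age, genome and gene annotation all differ between the groups and cannot be told apart, so levels are compared within a species and only the contrast between cell classes is compared between species.

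Transferrin carries ferric iron in blood and tissue fluid, and cells take the loaded protein up through the transferrin receptor. Iron that is not used at once is stored inside the ferritin shell, where the heavy chain oxidises it and the light chain supports its deposition, and ferroportin is the known exporter of iron from cells. Macrophages recycle iron from haem and export it. In the testis, Sertoli cells lie between the blood and most germ cells and are known to secrete transferrin, and steroid-making Leydig cells use haem in their cytochrome P450 enzymes. Ferritin and ferroportin mRNAs carry an iron-responsive element in the 5′ untranslated region (UTR), a hairpin to which iron regulatory proteins bind when iron is low.

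The hairpins are shown for the pig because its files and the RefSeq annotation share the Sscrofa11.1 build. The 5′ and 3′ UTRs of 1 transcript per gene were searched on the transcript strand for a C, 5 bases, the loop CAGTGN and 5 bases that pair with the first 5, with G-T pairs allowed. A match was found in the 5′ UTR of 3 members, with the loop in capitals:

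FTH1: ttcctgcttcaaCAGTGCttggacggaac

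FTL: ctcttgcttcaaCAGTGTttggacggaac

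SLC40A1: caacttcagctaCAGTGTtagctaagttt

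The FTH1 window lies at chr2:9535175-9535203 on the plus strand, inside the gene at 9535051 to 9537979. The FTL window lies at chr6:54231194-54231222 on the plus strand, inside the gene at 54231121 to 54232756. The SLC40A1 window lies at chr15:94161660-94161688 on the minus strand, inside the gene at 94140635 to 94161793. Of all 18316 annotated 5′ UTRs searched in the same way, 0.306% held a match, and of the 18765 3′ UTRs 0.65% did. No match was found in the windows of TF or TFRC, and the 3′ UTR of the annotated TFRC transcript (chromosome 13, 133976765 to 133997554) was only 53 bases long. A match is a description of sequence and was not tested for binding.

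After cell calling and doublet removal 26688 cells remained, 3444, 8138 and 5900 in the cattle and 3162, 3808 and 2236 in the pigs. Levels are given as unique molecular identifiers (UMIs) of a gene per 1000000 UMIs (CPM), where each UMI marks 1 captured mRNA molecule. Median UMIs per cell ranged from 788 to 4462.5 in the cattle and from 889.5 to 5870 in the pigs, with cattle 1 and pig 1 the shallowest. Pairs of libraries shared 8 to 58 cell barcodes. Clusters were named from fixed markers, and 24 clusters in cattle and 27 in pigs fell into 7 classes (Leydig-like, Sertoli-like, germ-like, macrophage-like, lymphocyte-like, endothelial-like and stromal/myoid-like). Of these clusters, 15 in cattle and 14 in pigs drew over 90% of their cells from 1 library. The Leydig-like class held 1041, 483 and 389 cells in the cattle and 896, 83 and 88 in the pigs, and its summed marker level was 92599 to 146565 CPM in cattle and 37670 to 45645 CPM in pigs, while no other named class exceeded 6647 CPM in cattle or 2030 CPM in pigs. Of the named clusters, 3 in cattle and 6 in pigs had none of their own markers among their 10 leading genes. Unnamed clusters held 1330 cells of pig 1, mostly in a cluster of 1087 cells (96.5% from pig 1) whose leading genes include INHA, CLU and HSD17B3.

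TF in cattle was a Leydig-like transcript. In Leydig-like cells TF stood at 471, 458 and 513 CPM in cattle 1, 2 and 3, with a mean of 481 ± 28.5 CPM (SD, n = 3). The 3 animals lay close together and did not overlap with any other class. Sertoli-like cells came next with 101, 31.7 and 63.5 CPM, a mean of 65.3 ± 34.6 CPM. Germ-like, macrophage-like, lymphocyte-like, stromal/myoid-like and endothelial-like cells followed with means of 25.03, 20.1, 18.4, 13.6 and 3.19 CPM, and each overlapped with its neighbour in the order. Within the Leydig-like class the clusters held 473, 230, 468 and 524 CPM, so the lowest of them, a cluster of 127 cells, stood at less than the others while still above all clusters of other classes. After thinning each cell to 500 UMIs, which left out 45 shallower cells of cattle 1, 20.7%, 21.97% and 21.95% of Leydig-like cells had a TF UMI in cattle 1, 2 and 3, and before thinning 34.5%, 55.1% and 83.8% did at medians of 959, 1854 and 5144 UMIs per cell. The thinned shares lay close together while the unthinned ones rose with depth. In Sertoli-like cells the thinned shares were 4.44%, 1.60% and 2.96%.

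**Figure D1:**
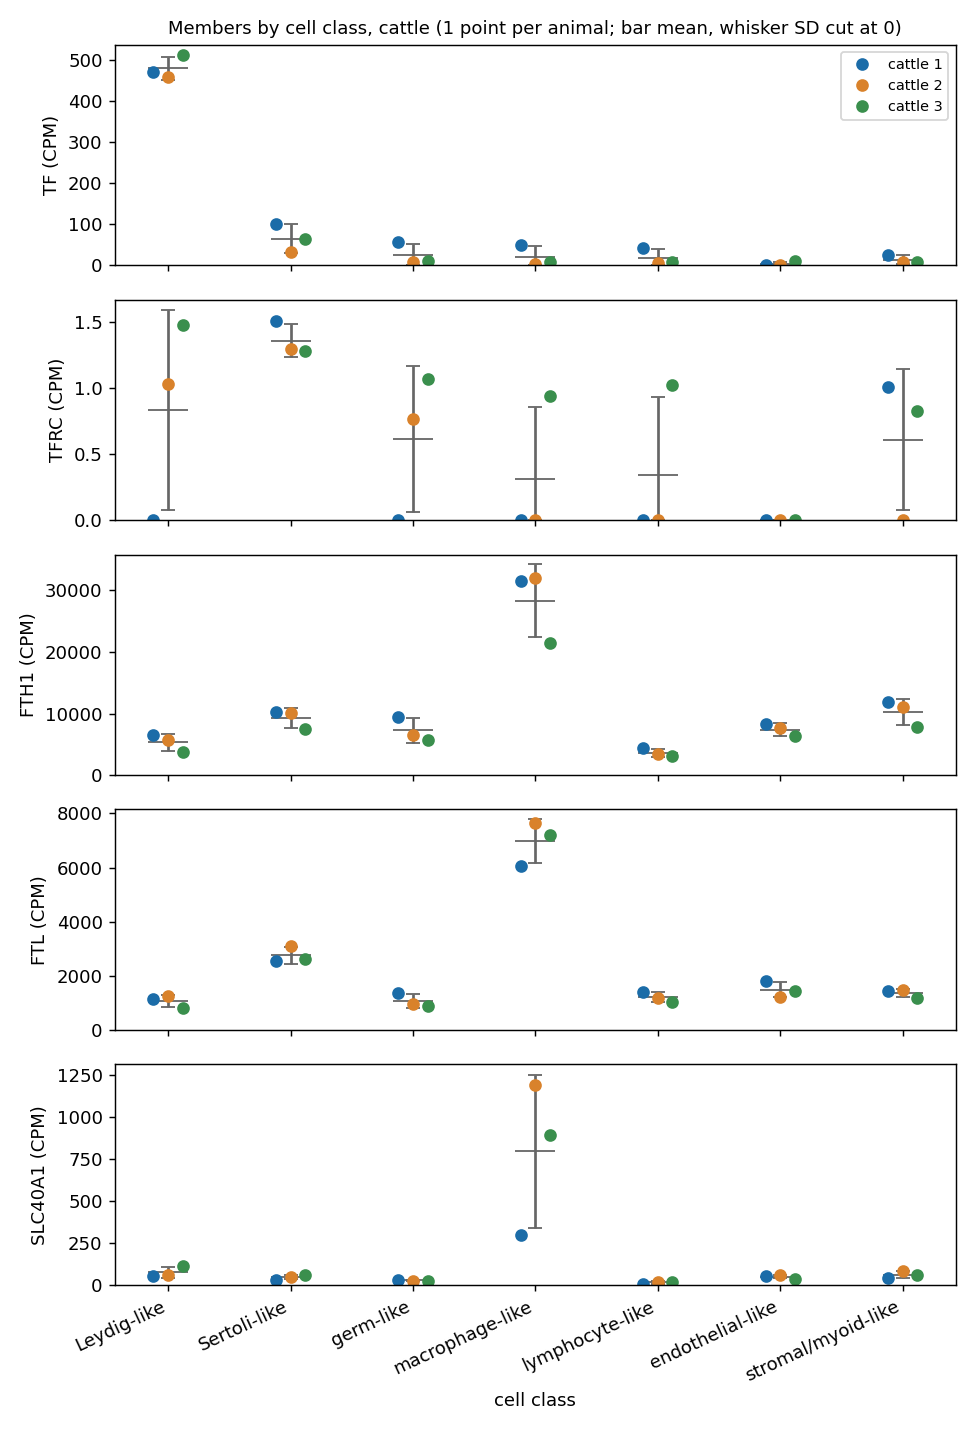
Levels of the 5 genes in CPM in each of 7 cell classes of the 3 cattle, on a separate linear axis per gene, with 1 point per animal, a bar at the mean and a whisker of 1 SD drawn no lower than 0. TF is highest in Leydig-like cells of all 3 animals, FTH1, FTL and SLC40A1 in macrophage-like cells, and TFRC stays below 2 CPM in every class.

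Free RNA bears on the low TF levels outside the Leydig-like class. In cattle barcodes with 1 to 50 UMIs, which hold mostly RNA that was free in the suspension, TF stood at 412 CPM in cattle 1, 92.6 in cattle 2 and 79.5 in cattle 3. Cattle 1 was thus the highest in free RNA and also the highest in germ-like, macrophage-like, lymphocyte-like and stromal/myoid-like cells (57.3, 50.1, 42.0 and 26.1 CPM against 2.76 to 9.37 CPM in the others). In all 3 animals the TF level of every class other than Leydig-like was below that of the free RNA. The part of free RNA in these levels was not tested.

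TF was also set beside the Leydig markers of the same cells, as a description, since the Leydig-like level is the one that chose the gene. Per 1000 UMIs of the Leydig markers Leydig-like cells held 3.21, 4.95 and 4.76 TF UMIs in cattle 1, 2 and 3. The near-empty barcodes held 3.60, 3.44 and 4.37, and stromal/myoid-like cells held 4.09, 5.32 and 3.97. Sertoli-like cells held 19.9 (exact 95% Poisson interval 15.4 to 25.2), 30.03 (26.0 to 34.5) and 47.2 (43.5 to 51.1), above both in every animal. Germ-like cells held 9.27 (5.40 to 14.8) in cattle 1 and 16.2 (8.08 to 28.9) in cattle 2, from only 17 and 11 TF UMIs, and in cattle 3 35 TF UMIs stood beside 3153 marker UMIs (interval of the ratio 7.73 to 15.4 per 1000). The part of free RNA in Sertoli-like and germ-like TF was not tested. Intervals cover counting error only.

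**Figure D2:**
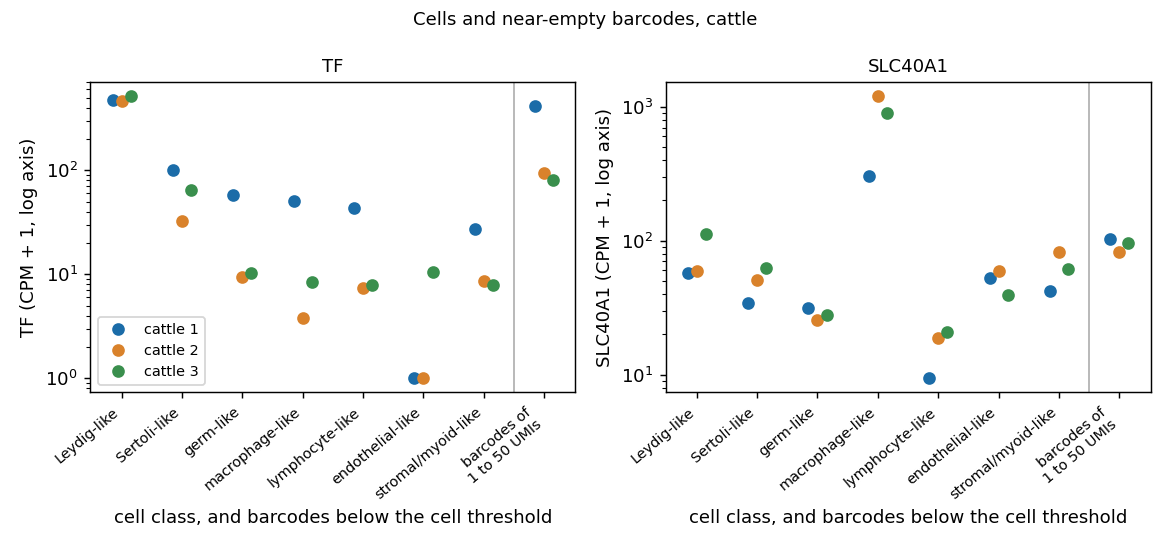
TF (left) and SLC40A1 (right) in cattle as CPM plus 1 on a log axis, with 1 point per animal for each cell class and, right of the line, for barcodes with 1 to 50 UMIs. Outside Leydig-like cells, TF of cattle 1 lies above the other animals in most classes as it does in the near-empty barcodes, and SLC40A1 of macrophage-like cells lies above the near-empty barcodes in all 3 animals.

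TF was almost absent from the pig libraries. Only 1, 3 and 4 UMIs were counted in pigs 1, 2 and 3 among 4359959, 19058816 and 20747495 UMIs, and Leydig-like and Sertoli-like cells had none. A germ-like cluster of 239 cells held 7 of them. RefSeq names 2 neighbouring pig genes TF on chromosome 13, transferrin at 74930655 to 74970599 and the porcine inhibitor of carbonic anhydrase at 74862502 to 74907059, whose mRNAs are 74.4% identical over 2165 aligned bases. The pig table lists 1 gene under that symbol, and which of the pair it is could not be told from the files. The part of the annotation in the low pig level was not tested.

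TFRC, the receptor that takes up transferrin, is described within each species. In pigs, Leydig-like cells held 77.6, 210 and 131 CPM in pigs 1, 2 and 3, a mean of 139.5 ± 66.7 CPM (SD, n = 3). All 3 pigs lay above every animal of every other class. The other classes had means of 16.0 to 30.9 CPM and overlapped with each other, with lymphocyte-like cells at 30.9, germ-like at 27.9, endothelial-like at 25.1 (n = 2), macrophage-like at 21.8, Sertoli-like at 20.5 and stromal/myoid-like at 16.0 CPM. The macrophage-like and stromal/myoid-like means each take in a 0 from pig 1, where the floor of 3 UMIs was 29.0 and 244 CPM. The stromal/myoid-like sum of pig 1 (13 cells) was thus too small to be placed against its Leydig-like cells. Among clusters the highest outside the Leydig-like class were a cluster led by VPREB1 and IRF8 at 68.6 CPM and a germ-like cluster of 534 cells at 60.1 CPM. The VPREB1 cluster was put in the macrophage-like class by the fixed markers. It held FTL at 1243 and SLC40A1 at 1.6 CPM, against 8427 and 94.9 CPM in the macrophage-like cluster led by complement C1Q genes. Thinned to 500 UMIs, 3.86%, 10.0% and 6.56% of pig Leydig-like cells had a TFRC UMI against 1.26%, 1.08% and 0.937% of Sertoli-like cells, and before thinning the shares were 6.36%, 39.8% and 38.6% against 2.56%, 8.79% and 9.62%.

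In cattle TFRC gave 2, 11 and 36 UMIs in cattle 1, 2 and 3. No class exceeded a mean of 1.36 CPM. The highest cluster, 151 unnamed cells led by class II antigen genes, stood at 6.5 CPM. With so few TFRC UMIs an order of cattle classes could not be resolved.

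Dividing cells are known to need iron, so TFRC was compared between cells with UMIs of at least 2 of 7 mitotic genes and cells of the same class and animal with none. In pigs TFRC was higher in the dividing cells in 8 of 10 pairs of an animal and a class. The exact 95% Poisson intervals overlapped in all 10 pairs. In lymphocyte-like cells of pig 3 TFRC stood at 52.3 CPM (34.4 to 76.0) against 20.6 (9.88 to 37.9), and in germ-like cells of pig 3 at 48.3 CPM (43.9 to 52.9) against 31.1 (17.8 to 50.5). In germ-like cells of pigs 1 and 2 the values were 14.2 against 13.9 and 25.8 against 31.0 CPM. Overlap of intervals is no test of the difference, and none was made. In cattle the dividing cells of 7 pairs held 5 TFRC UMIs in all.

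Ferritin was highest in the macrophage-like cells of cattle. FTH1 there stood at 31448, 32005 and 21466 CPM in cattle 1, 2 and 3, and FTL at 6062, 7651 and 7214 CPM. Both genes lay above every other class in every animal. For FTH1 the other means ran from 10233 ± 2145 CPM in stromal/myoid-like cells and 9294 ± 1630 in Sertoli-like cells down to 5360 ± 1392 in Leydig-like and 3617 ± 707 in lymphocyte-like cells, and each overlapped with the next. For FTL, Sertoli-like cells were second at 2544, 3106 and 2633 CPM, above all remaining classes, whose means were 1074 to 1497 CPM and overlapped. The macrophage-like cells were not uniform. The larger of 2 clusters (414 cells) held FTH1 at 29128 and FTL at 9021 CPM, and the smaller (146 cells) held 12810 and 2943 CPM. In the near-empty barcodes FTH1 stood at 8508 to 11689 CPM and FTL at 2245 to 2491 CPM, and the macrophage-like cells lay above them for both genes in every animal. Sertoli-like cells lay above the near-empty barcodes of their animal for FTL in all 3 cattle, and stromal/myoid-like cells for FTH1 in cattle 1 and 2. Leydig-like, lymphocyte-like, germ-like and endothelial-like cells lay below them for both genes in every animal, with lymphocyte-like FTH1 at 4415, 3369 and 3068 CPM.

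The share of the heavy chain differed between classes in cattle. UMIs are counted once per captured mRNA end and are not scaled to length, so the share is compared between classes and not read as a ratio of chains. FTH1 made up 89.2%, 88.1% and 86.7% of ferritin UMIs in stromal/myoid-like cells of cattle 1, 2 and 3 and 87.4%, 87.1% and 86.5% in germ-like cells. It made up 85.1%, 81.9% and 82.4% in Leydig-like cells, 80.2%, 76.6% and 73.8% in Sertoli-like cells and 75.8%, 74.2% and 74.6% in lymphocyte-like cells. In macrophage-like cells it was 83.8%, 80.7% and 74.8%, a spread as wide as the gap to Leydig-like or lymphocyte-like cells. Sertoli-like cells thus had a lower heavy chain share than Leydig-like, germ-like and stromal/myoid-like cells in every animal.

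**Figure D3:**
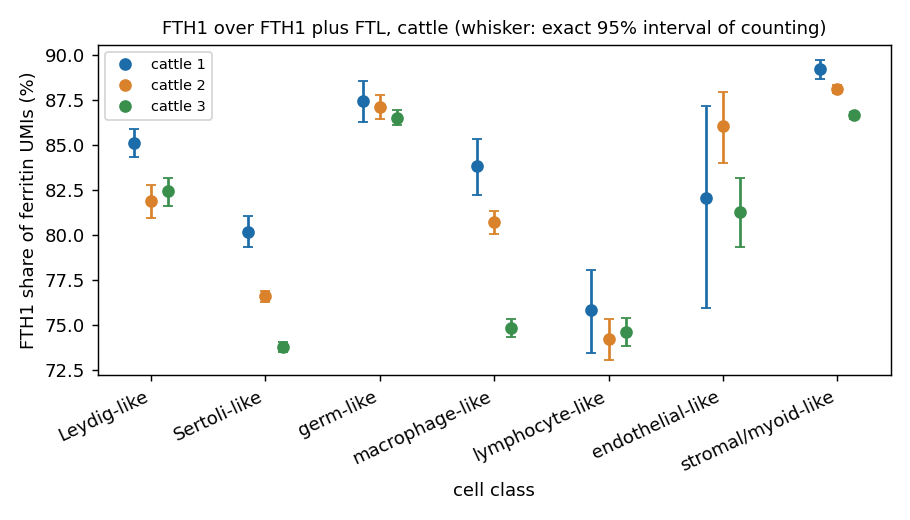
FTH1 as a percent of the FTH1 plus FTL UMIs in 7 cell classes of the 3 cattle, with 1 point per animal and the exact 95% binomial interval of counting as whiskers. Stromal/myoid-like and germ-like cells lie between 86.5% and 89.2% in all 3 animals and lymphocyte-like cells between 74.2% and 75.8%.

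In pigs the light chain was highest in the Leydig-like class as a whole. FTL stood at 6396, 8959 and 11037 CPM in Leydig-like cells of pigs 1, 2 and 3, a mean of 8797 ± 2325 CPM (SD, n = 3). Macrophage-like cells followed at 5826, 4289 and 5557 CPM and Sertoli-like cells at 3995, 3657 and 4025 CPM, and neighbours in that order did not overlap. Stromal/myoid-like, germ-like, lymphocyte-like and endothelial-like cells had means of 2584, 1756, 1620 and 1474 CPM. Summed macrophage markers were 42.0 to 141 CPM in the pig Leydig-like cells against 4989 to 8286 CPM in macrophage-like cells. The part of macrophage RNA in the Leydig-like FTL level was not tested, and free RNA could not be measured in pigs. The pig macrophage-like class was mixed, with FTL at 8427 CPM in the cluster led by complement C1Q genes and 1213 and 1243 CPM in the others. The Leydig-like clusters held 7029 CPM (991 cells) and 12091 CPM (76 cells). The C1Q-led cluster thus lay above the larger Leydig-like cluster, and the order of the classes depends on this mixture.

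FTH1 was at or near 0 in the pig libraries, with 0, 4 and 1 UMIs in pigs 1, 2 and 3. The heavy chain share could therefore not be described in pigs. A search of the pig FTH1 mRNA against the genome found no other locus where 1 alignment reached 90% identity over 80% of its length. The same held for the other members. A copy split by introns could be missed by this rule. FTH1 had 30 alignments elsewhere and FTL 94, all short of it. The reason for the low count was not tested.

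**Figure D4:**
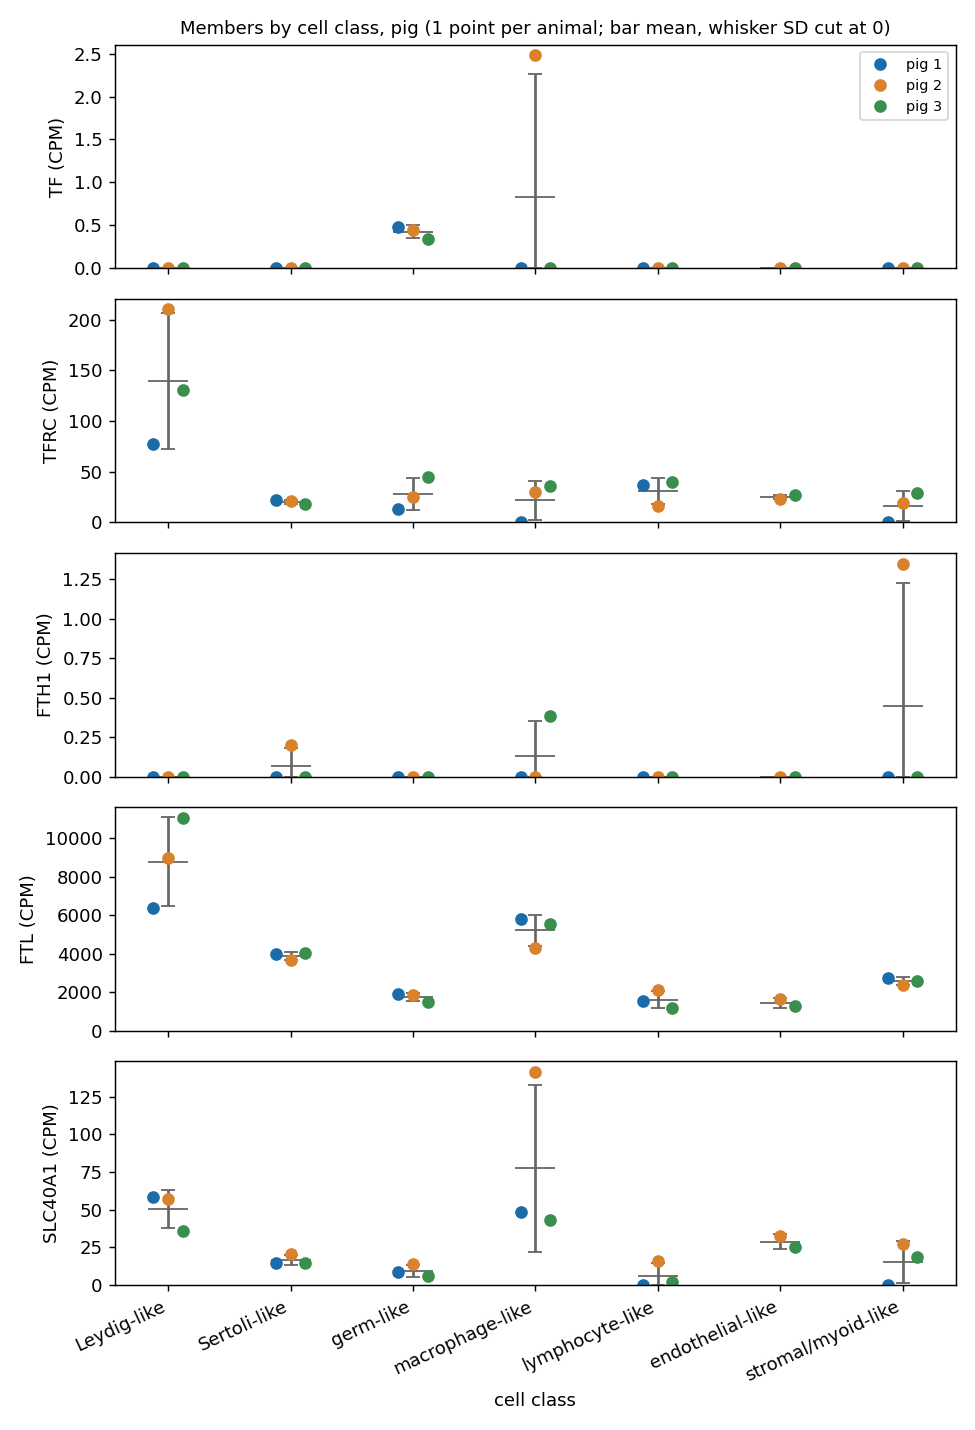
Levels of the 5 genes in CPM in each of 7 cell classes of the 3 pigs, on a separate linear axis per gene, with 1 point per animal with at least 10 cells, a bar at the mean and a whisker of 1 SD drawn no lower than 0. TFRC and FTL are highest in Leydig-like cells, TF stays below 3 CPM and FTH1 below 2 CPM.

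SLC40A1, the iron exporter, was highest in macrophage-like cells of cattle. It stood there at 301, 1193 and 896 CPM in cattle 1, 2 and 3, and no other class exceeded 111 CPM in any animal. Cattle 1 was the lowest of the 3 and still lay above all other classes. Leydig-like cells were second at 56.6, 58.5 and 111 CPM and overlapped with stromal/myoid-like cells at 41.2, 81.3 and 60.2 CPM, while lymphocyte-like cells were lowest at 8.41, 17.8 and 19.8 CPM. The near-empty barcodes held 81.0 to 101 CPM, and outside the macrophage-like class only Leydig-like cells of cattle 3 and stromal/myoid-like cells of cattle 2 reached that level. Per 1000 UMIs of the macrophage markers, stromal/myoid-like cells held 97.4, 428 and 196 SLC40A1 UMIs and Leydig-like cells 194, 289 and 369, against 12.6, 37.7 and 35.1 in macrophage-like cells and 25 to 45.5 in the near-empty barcodes. In pigs the order at the top was the same but closer. Macrophage-like cells held 48.4, 141 and 43.0 CPM and overlapped with Leydig-like cells at 58.5, 57.3 and 35.9 CPM. The pig cluster led by C1Q genes held 94.9 CPM and the other macrophage-like clusters 3.0 and 1.6 CPM.

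Each class was then compared with the sum of all other kept cells of the same animals, with the quasi-likelihood test of edgeR, adjusted by Benjamini-Hochberg over all genes tested. The main fit treated the 2 sums of an animal as independent, and the fit with the animal as a block paired them. With the block, adjusted p-values of the edgeR test fell as low as 1.91e-91 (CD163 of the iron genes below, cattle macrophage-like cells). Values of that size cannot measure the spread over 3 animals alone, so calls with the block are given as a description. In cattle macrophage-like cells 3 of the 4 members tested rose. SLC40A1 was 4.02 ± 0.48 higher on the log2 scale (adjusted p = 0.000262), FTL 2.01 ± 0.26 higher (adjusted p = 0.00042) and FTH1 1.72 ± 0.25 higher (adjusted p = 0.000985), each in 3 of 3 animals, with errors as SE. Of all 14147 genes tested 7.77% were called, 5.08% higher and 2.69% lower. With the animal as a block, 2906 genes were called in place of 1099. In pig macrophage-like cells 2 of the 3 members tested rose, SLC40A1 by 2.59 ± 0.50 (adjusted p = 0.00577) and FTL by 1.27 ± 0.29 (adjusted p = 0.0149), in 3 of 3 animals. Of 15202 genes 13.7% were called there, 7.58% higher and 6.12% lower, and 5068 in place of 2082 with the block. Scaling by library size alone called 967 genes higher and 2017 lower there. Limited to the C1Q-led cluster, a choice made after seeing the data, the pig values were 3.18 (adjusted p = 0.00144) and 1.75 (adjusted p = 0.00505). The pig FTL call was lost without pig 3 (adjusted p = 0.161) and with a minimum of 500 UMIs per cell (adjusted p = 0.123).

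In pig Leydig-like cells all 3 members tested rose, in 3 of 3 animals each. TFRC was 2.51 ± 0.42 higher (adjusted p = 0.00461), FTL 1.79 ± 0.33 (adjusted p = 0.00807) and SLC40A1 1.80 ± 0.42 (adjusted p = 0.0243). Of 15202 genes 7.72% were called, 4.55% higher and 3.16% lower, and 3560 in place of 1173 with the block. Without pig 2 the adjusted p was 0.0568 for TFRC and 0.0776 for FTL, without pig 3 it was 0.0579 for FTL, and without pig 1, which gave most of the Leydig-like cells, it was 0.289 for SLC40A1. In cattle Leydig-like cells no member tested passed the threshold, against 14.6% of the 14147 genes, 5.90% higher and 8.67% lower. FTH1 and FTL had lower CPM in Leydig-like than in other cells of all 3 cattle (5360 against 9411 CPM and 1074 against 1958 CPM on average), while the fitted changes were −0.28 ± 0.30 and −0.35 ± 0.26 (adjusted p = 0.55 and 0.397). Scaling by library size alone, which moved the median gene by −0.52 on the log2 scale, gave −0.81 (adjusted p = 0.0479) and −0.87 (adjusted p = 0.0296), and called 451 genes higher and 2780 lower in place of 835 and 1227. With the block, 4579 genes were called in place of 2062, among them SLC40A1 at 0.68 (adjusted p = 0.00311, against 0.269 without it), although its CPM was higher in Leydig-like cells of 2 of 3 animals only.

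**Figure D5:**
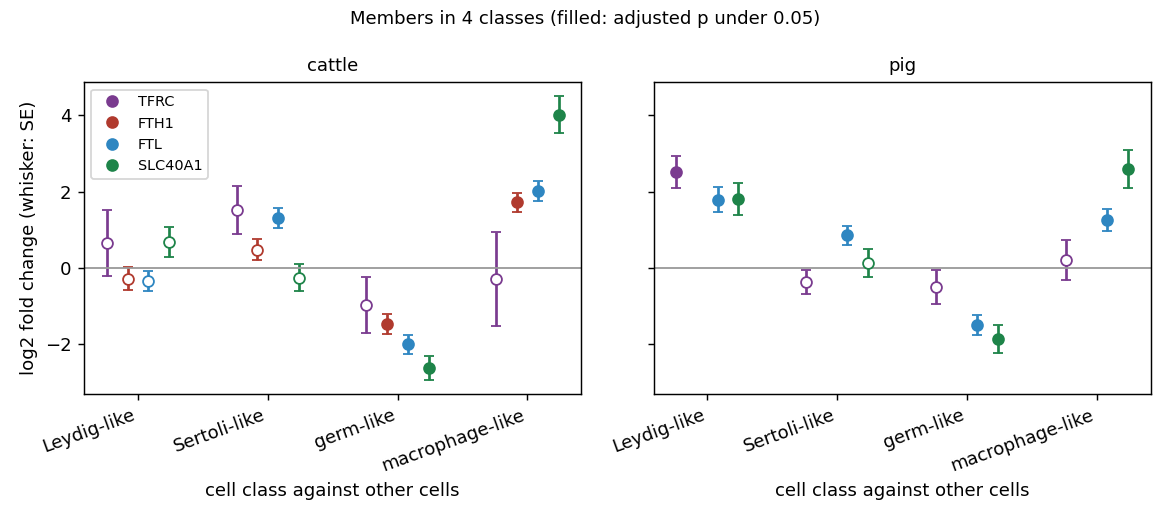
Log2 fold change of TFRC, FTH1, FTL and SLC40A1 in 4 cell classes against the other cells of the same animals, in cattle (left) and pigs (right), with SE whiskers from the edgeR test and filled points where the adjusted p was under 0.05. SLC40A1 and FTL are above 0 in macrophage-like cells and below 0 in germ-like cells of both species, and TFRC is above 0 and filled only in pig Leydig-like cells.

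In Sertoli-like cells FTL was the only member called. It rose by 1.32 ± 0.26 in cattle (adjusted p = 0.00527) and by 0.86 ± 0.24 in pigs (adjusted p = 0.036), in 3 of 3 animals of each. The cattle call was lost without cattle 2 (adjusted p = 0.133) or cattle 3 (0.0878). The pig call was lost under 7 alternatives of scaling, test or cell selection and without pig 2 or 3, at adjusted p of 0.0764 to 0.447. Of all genes 33.1% were called in cattle, 13.7% higher and 19.4% lower, and 20.2% in pigs, 8.20% higher and the others, 1822 genes, lower. With library size alone the calls were 1174 higher and 3971 lower in cattle and 726 and 2649 in pigs, and with the size factors of DESeq2 902 and 2463 in pigs. The block gave 7891 calls in place of 4684 in cattle and 6133 in place of 3069 in pigs, and it called cattle TFRC, which rests on 49 UMIs, at 1.46 (adjusted p = 0.0274, against 0.0957 without it).

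In germ-like cells ferritin and ferroportin transcripts made up on average a smaller share of the UMIs than in other cells. FTH1 was tested in cattle only. Mean shares in cattle were 7261 against 8968 CPM for FTH1, 1076 against 1922 for FTL and 27.2 against 74.8 for SLC40A1. In pigs they were 1756 against 3831 CPM for FTL and 9.45 against 26.3 for SLC40A1. The fitted changes below also hold the scaling of the test, so they are larger than these shares alone give. Shares are not molecules per cell. In cattle FTH1 fell by 1.47 ± 0.27 on the log2 scale (adjusted p = 0.00149), FTL fell by 1.997 ± 0.25 (adjusted p = 0.000176) and SLC40A1 fell by 2.61 ± 0.32 (adjusted p = 0.000153). In pigs FTL fell by 1.49 ± 0.26 (adjusted p = 0.00613) and SLC40A1 by 1.86 ± 0.36 (adjusted p = 0.0085). FTL and SLC40A1 were lower in germ-like cells of 3 of 3 animals of both species, while FTH1 of cattle 1 was not, at 9505 CPM against 9419 CPM. Library size alone moved the median gene by 1.11 in cattle germ-like cells and gave FTH1 −0.31 (adjusted p = 0.329), and without cattle 2 its adjusted p was 0.0603. The pig SLC40A1 call was lost without pig 1 (adjusted p = 0.0687). TFRC did not pass the threshold in germ-like cells of either species (−0.97 ± 0.72 in cattle and −0.49 ± 0.46 in pigs, adjusted p = 0.292 and 0.426). These calls are to be read against a high background, since 49.8% of all genes were called in cattle (23.2% higher, 26.7% lower) and 34.2% in pigs (16.2% higher, 18.0% lower). With library size alone they were 6245 higher and 1808 lower in cattle and 3372 and 1846 in pigs.

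The contrasts were next compared between the species over the 12841 symbols in both gene tables that passed the filter, as an interaction. TF was not tested there and FTH1 rests on 5 pig UMIs. FTL in Leydig-like cells was the only member that differed. Its contrast was 1.94 ± 0.41 higher in pigs than in cattle on the log2 scale (adjusted p = 0.0124), being above the other cells in 3 of 3 pigs and below them in 3 of 3 cattle, against 2.78% of all genes called. The call was lost without cattle 2 (adjusted p = 0.0943), cattle 3 (0.102) or pig 3 (0.0822). No member differed in Sertoli-like, germ-like or macrophage-like cells, where 9.80%, 15.4% and 0.911% of all genes did. With the animal as a block the calls were 1321, 3014, 3323 and 818 in the 4 classes in place of 357, 1258, 1973 and 117, and they then took in TFRC in Sertoli-like cells (−1.86, adjusted p = 0.0153) and SLC40A1 in macrophage-like cells (−1.49, adjusted p = 0.00849), both lower in pigs. With library size alone the calls in Leydig-like cells were 351 higher and 84 lower in pigs, and in germ-like cells 493 and 2189.

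Around the 5 members, 57 genes of iron uptake, haem handling, export, storage, control and mitochondrial use were followed, of which 45 were tested in each species. The lists share the background percentages given above. In cattle macrophage-like cells 6 rose and 1 fell (9 and 5 with the animal as a block), with a median log2 change of −0.19 against −0.42 over all genes tested. Of all genes 5.08% were called higher and 2.69% lower there. CD163, the scavenger receptor for haemoglobin, rose by 6.19 ± 0.43 (adjusted p = 6.16e-06), at 100.2, 99.2 and 85.5 CPM against 1.03 to 2.43 CPM elsewhere. HMOX1, the enzyme that frees iron from haem, rose by 5.06 ± 0.54 (adjusted p = 0.000117), and SLC48A1, a haem transporter, by 2.16 ± 0.44 (adjusted p = 0.0103). LTF (lactotransferrin) fell by 2.51 ± 0.51 (adjusted p = 0.0107). In pig macrophage-like cells 4 rose and 2 fell (9 and 8 with the block), with the median at −0.21 against −0.54. Of all genes 7.58% were called higher and 6.12% lower there. CD163 rose by 7.58 ± 0.48 (adjusted p = 1.41e-05) and HMOX1 by 4.98 ± 0.55 (adjusted p = 0.000148). NEO1 (neogenin) fell by 3.22 ± 0.61 (adjusted p = 0.00508), and TFR2, the second transferrin receptor, had no UMI in any of the 3 sums, at least 9.50-fold lower than elsewhere against a floor of 3 UMIs over the group.

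In Leydig-like cells of cattle 7 of the 45 rose and 2 fell (median 0.10 against −0.31 over all genes), and of pigs 6 rose and 0 fell (median 0.087 against −0.48). With the block the counts were 14 and 6 in cattle and 12 and 3 in pigs. Without it 5.90% of all genes were called higher and 8.67% lower in cattle, and 4.55% and 3.16% in pigs. ALAS1, the first enzyme of haem synthesis, rose in both, by 3.05 ± 0.67 in cattle (adjusted p = 0.015) and 3.13 ± 0.63 in pigs (adjusted p = 0.0121). Its level was uneven between animals. In cattle 1, 2 and 3 it was 57.6, 402 and 48.1 CPM against 31.3, 21.9 and 28.4 CPM in other cells. In pigs 1, 2 and 3 it was 80.2, 157 and 701 CPM against 26.9, 50.8 and 29.5 CPM. The rise was thus by far the largest in cattle 2 and in pig 3. In cattle LCN2, which binds iron-loaded siderophores, rose by 3.53 ± 0.38 (adjusted p = 0.000664), SLC39A8, a divalent metal importer, by 3.20 ± 0.73 (adjusted p = 0.0169) and HPX, the haem carrier haemopexin, by 3.72 ± 0.77 (adjusted p = 0.0111). HPX stood at no more than 10.6 CPM. SLC39A8 stood at 2.88, 3.08 and 3.93 CPM in cattle 1, 2 and 3, at the floor of 3 UMIs in cattle 1 and 2. The sizes of both rest on few molecules. In pigs BLVRB (biliverdin reductase B) rose by 3.71 ± 0.44 (adjusted p = 0.000526), SLC25A28, a mitochondrial iron importer, by 2.88 ± 0.39 (adjusted p = 0.0011) and HFE, a regulator of iron sensing, by 2.27 ± 0.53 (adjusted p = 0.0235).

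In Sertoli-like cells of cattle 10 rose and 6 fell (15 and 9 with the block), with the median at 0.059 against −0.16 over all genes. Of all genes 13.7% were called higher and 19.4% lower there. LTF rose by 3.91 ± 0.44 (adjusted p = 0.000338), at 262, 82.1 and 108 CPM against 7.81 to 15.3 CPM elsewhere, and CUBN (cubilin, an endocytic receptor) by 3.56 ± 0.34 (adjusted p = 0.000152). HPX fell by 4.34 ± 1.13 (adjusted p = 0.0174) and LCN2 fell by 3.57 ± 0.75 (adjusted p = 0.0065). In Sertoli-like cells of pigs 8 rose and 6 fell (10 and 15 with the block), with the median at −0.31 against −0.15. Of all 15202 genes 8.20% were called higher there and 1822 genes lower. The 8 that rose were ACO1, BMP2, CYBRD1, FBXL5, FLVCR2, HAMP, LRP1 and NEO1. The 4 called genes with the largest change shared by all animals all fell. Their changes were −3.33 ± 0.96 for LTF (adjusted p = 0.0396), −5.11 ± 0.99 for STEAP1 (adjusted p = 0.0126), −4.28 ± 1.02 for CD163 (adjusted p = 0.0231) and −3.29 ± 0.81 for SLC39A8 (adjusted p = 0.0252). Other cells held at most 22.7 CPM of any of these 4 genes, so the sizes rest on few molecules.

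In germ-like cells of cattle 3 of the 45 rose and 17 fell (median −1.10 against −0.16 over all genes), and of pigs 4 rose and 13 fell (median −0.67 against −0.094). With the block the counts were 4 and 25 in cattle and 4 and 16 in pigs. Without it 23.2% of all genes were called higher and 26.7% lower in cattle, and 16.2% and 18.0% in pigs. TFR2 was called higher in germ-like cells of both species, and so was LRP2, another uptake gene of the list. TFR2 rose in cattle by 4.04 ± 0.48 (adjusted p = 0.000143), at 16.8, 23.0 and 18.7 CPM against less than 1 CPM elsewhere. LCN2, LTF and BLVRA (biliverdin reductase A) fell there, with changes of −4.40 ± 0.85 (adjusted p = 0.00218), −4.12 ± 0.40 (adjusted p = 4.94e-05) and −3.74 ± 0.39 (adjusted p = 6.97e-05). In pigs MELTF (melanotransferrin) and STEAP1 rose by 3.45 ± 1.07 (adjusted p = 0.0371) and 3.16 ± 0.88 (adjusted p = 0.026), while CD163 and HMOX1 fell, with changes of −4.02 ± 0.90 (adjusted p = 0.0128) and −3.19 ± 0.88 (adjusted p = 0.025). MELTF stood at only 0.485, 1.81 and 3.18 CPM in germ-like cells of pigs 1, 2 and 3, below the floor of 1.46 CPM in pig 1.

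The genes most like each member were listed by Pearson's r of log2(CPM + 10) over the sums of an animal and a class, 21 sums in cattle and 19 in pigs, as a description. The sums of an animal share a library and its depth. TF in cattle was followed most closely by JSRP1 (r = 0.94), TIMP2 (0.91), GSTA3 (0.89), RHBG (0.89) and NMB (0.89). FTH1 in cattle was followed by CTSZ (0.89), FTL (0.86), NAGK (0.85), NPC2 (0.84) and PLA2G2D3 (0.84). FTL in cattle was followed by CTNS (0.90), NPC2 (0.89), ATP6V0C (0.88), CFD (0.87) and PLA2G2D3 (0.87), and in pigs by LIPA (0.88), C6orf89 (0.87), CEBPB (0.86), TMEM141 (0.85) and TIMP2 (0.85). SLC40A1 in cattle was followed by C2 (0.93), FCGR1A (0.92), PLA2G2D3 (0.91), CD68 (0.90) and CLEC12A (0.90), and in pigs by GRN (0.89), NPC2 (0.84), DAB2 (0.84), RNPEPL1 (0.83) and APH1A (0.83). TFRC in pigs was followed by GBE1 (0.88), COASY (0.88), ETFB (0.88) and HADHA (0.87). For cattle TFRC and for pig TF and FTH1 the mean level was below 1 CPM, and the leading r were 0.74 (HPGD), 0.66 (ZNF655) and 0.63 (SEPT4), on values that hardly vary.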

How the data were processed

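The deposited matrices hold raw UMI counts per gene and barcode, which the authors made with 10x v2 chemistry and Cell Ranger 2.1.0 on ARS-UCD1.2 (cattle) and Sscrofa11.1 (pig). The header of the pig matrices names a later software version. Cattle matrices list all barcodes and pig matrices those with at least 500 UMIs, so free RNA was measured in cattle only. Total UMIs ran from 5805223 to 53325608 per library.

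Cells were called per library by the Cell Ranger 2 rule (a 10th of the 99th percentile of the 3000 largest totals, with at least 200 genes), and the cells with the highest Scrublet scores (0.8% per 1000 cells, 1270 in all) were removed. Scanpy 1.11.5 clustered each species (2000 variable genes, 30 components, 15 neighbours, Leiden resolution 1), leaving out the members, the iron list and mitochondrial genes. A marker counted at 5% of cells and 2-fold over the median cluster, and a name needed 3. Joining stromal and myoid markers, and leaving unnamed a cluster that shared 3 of its 10 leading genes with a germ-like cluster or, where its own markers did not lead, with another class, were decided after the clusters were seen. The members and lists were chosen with earlier results of these data known.

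UMIs were summed per animal and class, leaving out sums of under 10 cells, and genes with at least 10 counts were tested with edgeR 4.0.16 (TMM, quasi-likelihood, Benjamini-Hochberg, threshold 0.05). The SE is the fold change over the square root of the F statistic. TF was not tested in cattle, and pig TF and FTH1 had under 10 counts. The 2 sums of an animal come from 1 library and deviated together (r 0.26 to 0.71), so the animal as a block follows the design. Its p-values are not read as the spread between animals. On simulated counts the test kept its nominal rate with trended dispersions, and with gene-wise dispersions the share of false calls was above the threshold. These counts were drawn for the Leydig-like contrast only and with no link between the 2 sums of an animal. They therefore do not show the rate on these data. Named by rule were all members, up to 4 called genes of the iron list per comparison with the largest change shared by all animals, and 5 genes most like each member among symbols with a mean of at least 20 CPM, of which 1 gene is not reported here. Floors are 3 counts and intervals 95%. Alternatives covered scaling, DESeq2 1.42.0, filters, doublets, cell calling, resolution, weighting, the block and leaving out each animal. Sequences and gene positions came from RefSeq on Sscrofa11.1, searched with BLAST+ 2.17.0.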

Additional observations from a re-analysis of the deposited data

Results flagged for a closer look

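FTL in Leydig-like cells differed between the species in its contrast to other cells, by 1.94 on the log2 scale (pig minus cattle), in the edgeR interaction test with an adjusted p of 0.0124. It was lost on leaving out cattle 2, cattle 3 or pig 3.

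TF came up in a search for opposite signs in the libraries of cattle and pigs, in Leydig-like cells with a cattle mean of 481 CPM and in germ-like cells with 25.03 CPM. The cattle levels chose the gene, and the pig side rests on 8 UMIs in all, with 0 in Leydig-like cells, so no direction can be read in pigs. The difference was not tested.

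Members were also counted in cattle barcodes with 1 to 50 UMIs, which enter no comparison. TF stood there at 412, 92.6 and 79.5 CPM in cattle 1, 2 and 3, FTH1 at 11689, 10822 and 8508 CPM, FTL at 2323, 2491 and 2245 CPM, and SLC40A1 at 101, 81.0 and 95.1 CPM. TFRC gave 0, 0 and 1 UMIs, under the floor of 3. Groups of 3 animals were too small for the search for outlying samples.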

How the results depend on the processing

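Of 521 values of members' changes under alternatives, 466 kept their direction and their side of the threshold, 23 lost the call, 6 gained it and 26 turned their sign, none of which was called in either fit. The number of genes called was more fragile and moved by over 1.5 times in 50 of 144 alternatives. Library size alone gave 3231 calls in cattle Leydig-like cells. DESeq2 gave 1822 and equal weight for the other classes 1866 in pig Leydig-like cells. A minimum of 500 UMIs gave 2584 in cattle macrophage-like cells and, in pigs, 631 in Leydig-like, 1698 in Sertoli-like and 573 in macrophage-like cells. In pig Sertoli-like cells 781 were called with doublets kept and 627 at Leiden resolution 2. The animal as a replicate block gave 4579, 7891 and 2906 calls in cattle Leydig-like, Sertoli-like and macrophage-like cells, 3560, 6133 and 5068 in pigs, and 1321, 3014, 3323 and 818 for the difference between the species in Leydig-like, Sertoli-like, germ-like and macrophage-like cells. The block changed no call of a member other than those given with the results. The cause of these shifts was not tested.

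Leaving out 1 animal in turn, which leaves 2 per species, gave 165 to 2837 calls in Leydig-like, 1271 to 6275 in Sertoli-like, 3529 to 8459 in germ-like and 349 to 2066 in macrophage-like cells of cattle. In pigs it gave 210 to 845, 7 to 3580, 1684 to 2430 and 824 to 1410. For the difference between the species it gave 120 to 340, 441 to 1497, 600 to 1814 and 24 to 125. The low ends came without cattle 2 or cattle 3, and in pigs without pig 1 (Leydig-like, germ-like), pig 2 (Sertoli-like) or pig 3 (macrophage-like).

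The sign turned, without a call, for cattle TFRC in germ-like cells with library size alone (0.080) and in macrophage-like cells with DESeq2 (0.50), equal weights (0.42), a minimum of 500 UMIs (1.43) and doublets kept (0.56). It turned for pig SLC40A1 in Sertoli-like cells with library size alone (−0.19), DESeq2 size factors (−0.092), DESeq2 (−0.098), equal weights (−0.25), a minimum of 500 UMIs (−0.33) and the unnamed pig 1 cluster counted as Sertoli-like (−0.16), and for pig TFRC in macrophage-like cells with library size alone (−0.15), a minimum of 500 UMIs (−0.26) and the C1Q-led cluster alone (−0.27). The last 2 choices of clusters were made after seeing the data. Between the species it turned for FTH1 in Sertoli-like cells with the block (−0.23) and, with library size alone, for TFRC (−0.19) and FTL (−0.22) in germ-like and FTH1 (−0.15) in macrophage-like cells. Leaving out 1 animal, cattle TFRC ranged from −0.033 to 1.08 in Leydig-like, −1.14 to −0.88 in germ-like and −4.75 to 0.080 in macrophage-like cells, pig TFRC from −1.002 to 0.025 in germ-like and −0.10 to 0.41 in macrophage-like cells and pig SLC40A1 from −0.068 to 0.18 in Sertoli-like cells. The difference between the species ranged from −2.03 to 0.73 for FTH1 in Sertoli-like cells, −4.92 to 2.84 for FTH1 and −0.059 to 5.53 for TFRC in macrophage-like cells, and 0.42 to 0.87 for FTL and 0.15 to 1.04 for TFRC in germ-like cells.

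Of 280 mean levels by class under other cell calling, doublets or resolution, 271 moved by less than 1 SD. Cattle TFRC, pig TF and pig FTH1 rest on only 49, 8 and 5 UMIs, and the reason was not tested.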

Other observations

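FTL stood higher in dividing than in non-dividing stromal/myoid-like cells of the cattle, a pattern singled out after its values were seen. In cattle 1, 2 and 3 the 27, 95 and 76 dividing cells held 3100, 3381 and 2311 CPM of FTL against 1355, 1374 and 1123 CPM in cells with no UMI of the mitotic genes, and the exact 95% Poisson intervals were apart in every animal. FTH1 of the same cells went the other way, at 8818, 9260 and 7253 CPM against 12080, 11217 and 7911 CPM. In stromal/myoid-like cells of pig 3, the only pig with 20 dividing cells of that class, FTL was 3246 against 2284 CPM. In germ-like cells it was lower in the dividing cells of pigs 1 and 2 (1719 against 2032 and 1683 against 2442 CPM) and higher in pig 3 (1506 against 1396 CPM). In pig 3 FTL was 6123 against 5141 CPM in macrophage-like and 1196 against 1213.5 CPM in lymphocyte-like cells. It was 4311 against 3813 and 3658 against 3646 CPM in Sertoli-like cells of pigs 1 and 2. In endothelial-like cells of pigs 2 and 3 it was 1780 against 1620 and 1442 against 1232 CPM. In the other classes of cattle with 20 dividing cells, FTL was 2684 against 1167 CPM in lymphocyte-like cells of cattle 1 and 1741 against 955, 1003 against 872 and 891 against 492 CPM in germ-like cells of cattle 1, 2 and 3. The germ-like side of cattle 3 with no mitotic UMI was only 6 cells with 12 FTL UMIs. Other members of the dividing stromal/myoid-like cells also stood apart. TF was at 50.8, 30.6 and 16.4 CPM against 25.4, 6.67 and 5.67 CPM, with the intervals apart in cattle 2 and 3, and SLC40A1 was at 25.4, 19.1 and 32.7 CPM against 42.03, 87.3 and 61.6 CPM. A stromal/myoid-like cluster of 220 cells led by the mitotic genes UBE2C and CENPF, with none of its class markers among its 10 leading genes, held FTL at 2966, FTH1 at 8264, TF at 23.4 and SLC40A1 at 22.3 CPM. How many of the dividing cells lie in it was not counted. The intervals cover counting error only, and no test over animals was made.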
